A study of Mesostigma viride with 16 samples.

Results

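The genes described here are Mv20773-RA, Mv11286-RA and Mv06222-RA of the unicellular green alga *Mesostigma viride*, 3 of the 24431 genes with a value in every library. They were selected from the study's list of epigenetic genes, in the block headed by PRMT1A, with their FPKM over all conditions already known, so their levels and changes are given as a description and carry no p-value. That block lists 6 *M. viride* genes against 9 Arabidopsis genes for protein arginine methyltransferases (PRMTs) together. Which alga gene corresponds to which Arabidopsis PRMT is therefore not given, and the 3 genes are called genes of the PRMT block rather than homologs of PRMT1A itself. The other 3 genes of the block are Mv08291-RA, Mv15529-RA and Mv22134-RA. No sequence, coordinate or domain annotation of these genes was in the material used here, so none is shown, and whether near-identical gene copies share reads was not tested.

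Protein arginine methyltransferases transfer methyl groups from S-adenosylmethionine to arginine side chains, on histones and on many RNA-binding proteins. Type I enzymes, to which PRMT1 of animals and the PRMT1 proteins of Arabidopsis belong, form asymmetric dimethylarginine, whereas type II enzymes such as PRMT5 form the symmetric product. In Arabidopsis, members of the family are known for roles in flowering time, in pre-mRNA splicing and, for PRMT3, in ribosome biogenesis.

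Poly(A) RNA of strain NIES-296 was sequenced after cells grown at 23 °C, pH 7.5 and 50 μmol photons m−2 s−1, in a cycle of 10 h light and 14 h dark, had been kept for 24 h in an altered condition. The altered conditions were 12 °C (Cold), 32 °C (High temperature), 400 μmol photons (High light), no light (Darkness), pH 6.0 (Low pH) and pH 9.0 (High pH). Light and temperature treatments were compared with untreated cells called Control 1, and pH treatments with untreated cells called Control 2. Each condition had 2 libraries, which the study calls biological replicates, except Control 1, for which 1 library was used and the other was not used here. The light and temperature comparisons therefore share that Control 1 library, and the pH comparisons share the Control 2 libraries.

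Values are FPKM (mapped fragments scaled to transcript length and to the number of fragments in the library), so levels can be compared between genes per length. The sum of FPKM per library was 578174 to 683704, and the number of fragments behind a low FPKM is unknown. The median tested gene had 7.14 to 8.58 FPKM in the 13 libraries outside High temperature but 2.57 to 2.98 FPKM at High temperature. The median log2 change of all 14297 tested genes was −1.29 at High temperature, −0.26 in Cold and −0.20 under High light, and each change below is to be read against that shift. In bulk RNA, fewer cells carrying a transcript and less of it per cell cannot be told apart. A gene was called changed when it differed at least 2-fold and its p in a limma fit on log2(FPKM + 0.1), adjusted by Benjamini-Hochberg, did not exceed 0.01, and ± after a log2 change is its standard error.

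The 3 genes lay at very different levels. Mv11286-RA was the most abundant of the block per length, with 57.8 FPKM in Control 1, 67.7 and 64.9 FPKM in Control 2, and a level above that of 92.3% of the tested genes in the Control 1 library. Mv06222-RA had 17.0 FPKM in Control 1 and 16.4 and 16.1 FPKM in Control 2, above 72.3% of tested genes in Control 1. Mv20773-RA had 5.27 FPKM in Control 1 and 5.24 and 5.65 FPKM in Control 2, above 33.6% of tested genes in Control 1. The order Mv11286-RA, Mv06222-RA, Mv20773-RA held in all 13 libraries outside High temperature, and in the 2 High temperature libraries the last 2 changed places. The remaining genes of the block had 9.49 (Mv08291-RA), 6.03 (Mv15529-RA) and 7.18 FPKM (Mv22134-RA) in Control 1, all between Mv20773-RA and Mv06222-RA. None of the 6 genes was at 0 in any library, and all 6 passed the minimum for a test.

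**Figure D1:**
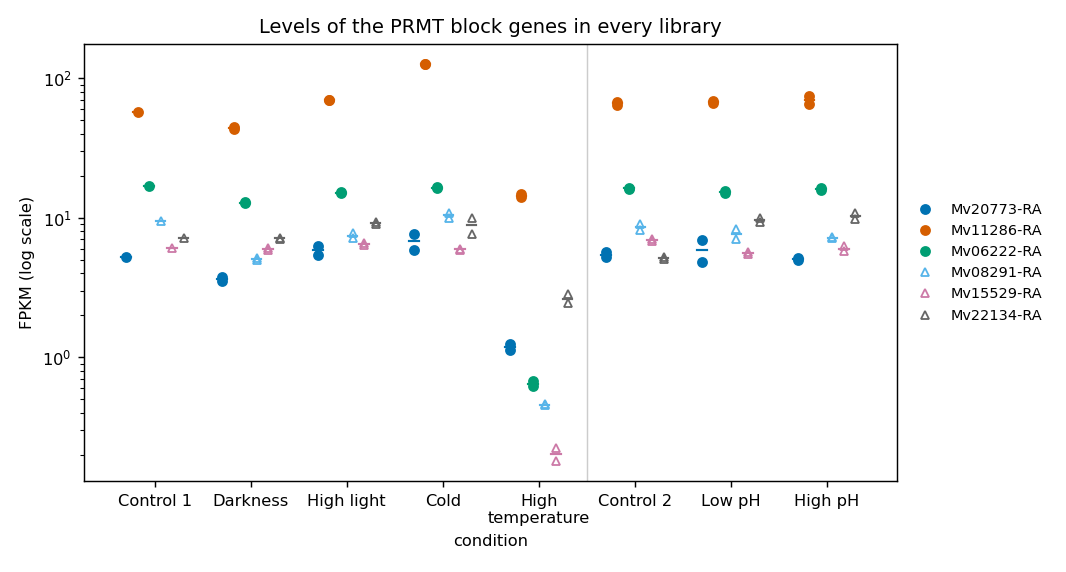
FPKM (log scale, y axis) of the 6 genes of the PRMT block in each of the 15 libraries, by condition (x axis). Filled circles are the 3 selected genes, open triangles the other 3 genes of the block, and short lines the condition means; Mv11286-RA stands highest in every condition, reaches 127 FPKM in Cold, and Mv06222-RA drops from 12.7 FPKM or more elsewhere to 0.62 and 0.68 FPKM at High temperature.

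Across the 8 conditions Mv11286-RA was highest in Cold and lowest at High temperature. Its mean was 127 ± 0.212 FPKM in Cold (SD, n = 2), where both libraries lay above every other library of the series. The next conditions were High pH (65.2 and 75.3 FPKM), High light (69.99 and 69.81 FPKM), Low pH (68.6 and 67.1 FPKM) and Control 2. The High pH libraries spanned High light and Low pH and overlapped Control 2, so the place of High pH in this order is not resolved. High light lay above Low pH and Control 2 without overlap, and Low pH overlapped Control 2. Control 1, Darkness (44.7 and 43.7 FPKM) and High temperature (14.8 and 14.1 FPKM) followed, each without overlap with the condition above it. The highest library was 9.04 times the lowest, and 1.72 times the lowest when Cold and High temperature were set aside.

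Mv06222-RA was nearly flat outside High temperature. Its 13 libraries there spanned 12.7 to 17.0 FPKM, a ratio of 1.34. Darkness was the lowest of these conditions, with 12.9 and 12.7 FPKM, and did not overlap High light above it (15.3 and 15.0 FPKM). Cold (16.3 and 16.6 FPKM), Control 2 and High pH (16.4 and 15.9 FPKM) overlapped their neighbours in this order, and Low pH had 15.7 and 15.1 FPKM. The log2 range over the 7 conditions without High temperature was 0.41, smaller than that of all but 10.5% of the tested genes, whereas over all 8 conditions it was 4.52, larger than that of 96.5% of them.

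Mv20773-RA was the most variable between replicates. Cold had 7.63 and 5.93 FPKM, Low pH 4.84 and 6.93 FPKM, High light 5.45 and 6.28 FPKM, and High pH 5.172 and 5.005 FPKM. From Cold down to Control 1 every neighbouring pair of conditions overlapped, so the order within each pair is not resolved. Both Cold libraries nonetheless lay above those of Control 2 and Control 1. Darkness (3.50 and 3.73 FPKM) and High temperature (1.25 and 1.14 FPKM) lay below all other libraries, with High temperature lowest. The residual SD between replicates was 0.18 on the log2 scale for Mv20773-RA, 0.06 for Mv11286-RA and 0.04 for Mv06222-RA. Among tested genes with a mean within 0.5 log2 units, 68.4%, 41.9% and 0.749% had a smaller SD, respectively.

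The High temperature comparison with Control 1 asked how the transcriptome of the alga responds to warming, and all 3 genes were called lower in it. Of all tested genes 62.2% were called in this comparison and 55.3% were called lower, and since these values were known when the genes were selected, nothing is read from the count of 3. Mv06222-RA changed by −4.52 ± 0.08, from 17.0 FPKM to 0.648 ± 0.0385 FPKM (SD, n = 2), which is 3.80% of the Control 1 level. Mv20773-RA changed by −2.05 ± 0.21 to 1.19 ± 0.0828 FPKM (22.7% of Control 1), and Mv11286-RA by −1.996 ± 0.08 to 14.4 ± 0.534 FPKM (25.0% of Control 1). For each gene both High temperature libraries lay below all 13 others.

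Relative to the shift of all genes the 3 genes parted. Mv06222-RA differed from the median log2 change by −3.23, and 2.13% of tested genes had a lower change. Mv20773-RA and Mv11286-RA differed from it by −0.76 and −0.70, with 32.3% and 33.5% of genes lower. When libraries were scaled to a median gene ratio of 1 (the gene-ratio scaling), Mv06222-RA stayed called at −3.30, and Mv20773-RA (−0.80) and Mv11286-RA (−0.68) were no longer called. After quantile normalization Mv20773-RA was at −0.07 and not called, with Mv11286-RA at −1.31 and Mv06222-RA at −2.78 still called. The split of all calls was 977 higher among 8886 in the deposited FPKM and 3325 higher among 7189 under the gene-ratio scaling. As a position among the tested genes of its own library, which no scaling factor moves, Mv06222-RA fell from above 72.3% of genes in Control 1 to above 18.0% and 23.2% at High temperature. Mv20773-RA was above 33.6% of genes in Control 1 and above 31.5% and 33.1% at High temperature, and Mv11286-RA above 92.3% and then 81.2% and 81.6%.

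**Figure D2:**
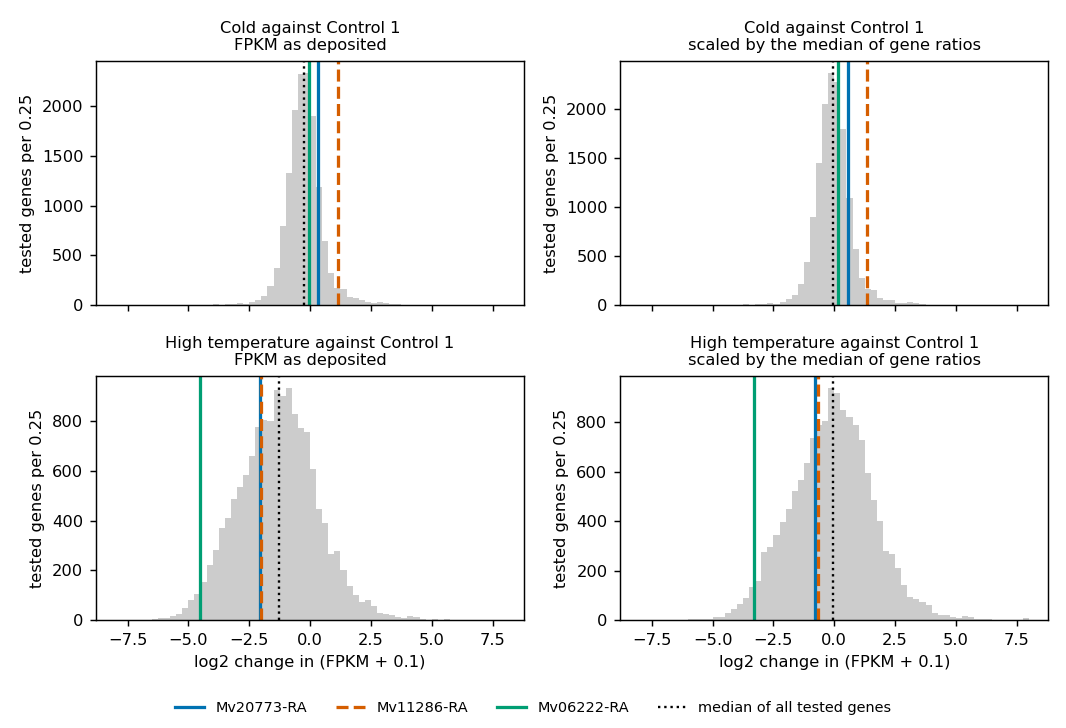
Number of tested genes (y axis) per 0.25 of log2 change (x axis; changes beyond ±8 are in the outer bins) in Cold and High temperature against Control 1, in the deposited FPKM (left) and after the gene-ratio scaling (right), with the 3 genes as coloured lines and the median of all tested genes dotted. At High temperature Mv06222-RA lies in the lower tail under both (−4.52 and −3.30), while Mv20773-RA and Mv11286-RA lie near the centre; in Cold Mv11286-RA lies in the upper tail (1.13 and 1.34).

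In Cold Mv11286-RA was the gene of the 3 with the largest change. It rose by 1.13 ± 0.08, from 57.8 FPKM in Control 1 to 127 and 126.7 FPKM, and 96.1% of tested genes had a lower change. It was the 1 gene of the 3 called in Cold, where 12% of all tested genes were called and 3.76% were called higher. Mv20773-RA was at 0.35 ± 0.21 and Mv06222-RA at −0.05 ± 0.08, neither called. Against Control 2, whose libraries had more Mv11286-RA than Control 1, the change of Mv11286-RA was 0.93 and under the 2-fold limit, and after quantile normalization it was 0.96. Mv20773-RA, at 0.35 in the deposited FPKM, was at 0.67 after quantile normalization, where none of the 3 genes was called. Under the gene-ratio scaling the change of Mv11286-RA was 1.34, and that scaling moved the split of all calls in Cold from 538 higher among 1722 to 744 higher among 1360.

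In the direct comparison of High temperature with Cold, which does not use the single Control 1 library, all 3 genes were called lower. The background was 58.6% of tested genes called and 50.7% called lower. The log2 changes were −4.47 ± 0.07 for Mv06222-RA, −3.13 ± 0.06 for Mv11286-RA and −2.40 ± 0.17 for Mv20773-RA, against a median of −1.07 over all tested genes. A lower change was found in 1.18% of genes for Mv06222-RA, in 9.67% for Mv11286-RA and in 20.7% for Mv20773-RA. After quantile normalization Mv20773-RA was at −0.74 and lost its call.

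In the light treatments all 3 genes differed from Control 1 by less than 2-fold. In Darkness the log2 changes from Control 1 were −0.53 ± 0.21 for Mv20773-RA, −0.39 ± 0.08 for Mv11286-RA and −0.41 ± 0.08 for Mv06222-RA. None was called, beside 5.15% of all tested genes, and for each gene both Darkness libraries were nonetheless below every library other than those of High temperature. Under High light the changes were 0.15 ± 0.21, 0.27 ± 0.08 and −0.17 ± 0.08 in the same order of genes, none called beside 5.81% of all genes. High light against Darkness, again free of Control 1, gave 0.68 ± 0.17, 0.66 ± 0.06 and 0.24 ± 0.07, none called beside 13.7% of all genes.

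The pH treatments left the 3 genes within 0.10 of Control 2 on the log2 scale. At Low pH the changes were 0.09 ± 0.17 for Mv20773-RA, 0.03 ± 0.06 for Mv11286-RA and −0.08 ± 0.07 for Mv06222-RA, with 1.57% of all genes called and none of the 3. At High pH they were −0.10 ± 0.17, 0.08 ± 0.06 and −0.01 ± 0.07, with 2.25% of all genes called and none of the 3. High pH against Low pH gave −0.18 ± 0.17, 0.05 ± 0.06 and 0.07 ± 0.07, where 0.804% of all genes were called. The untreated groups differed by 0.05 ± 0.21, 0.20 ± 0.08 and −0.07 ± 0.08 (Control 2 against Control 1), none called beside 3.39% of all genes.

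**Figure D3:**
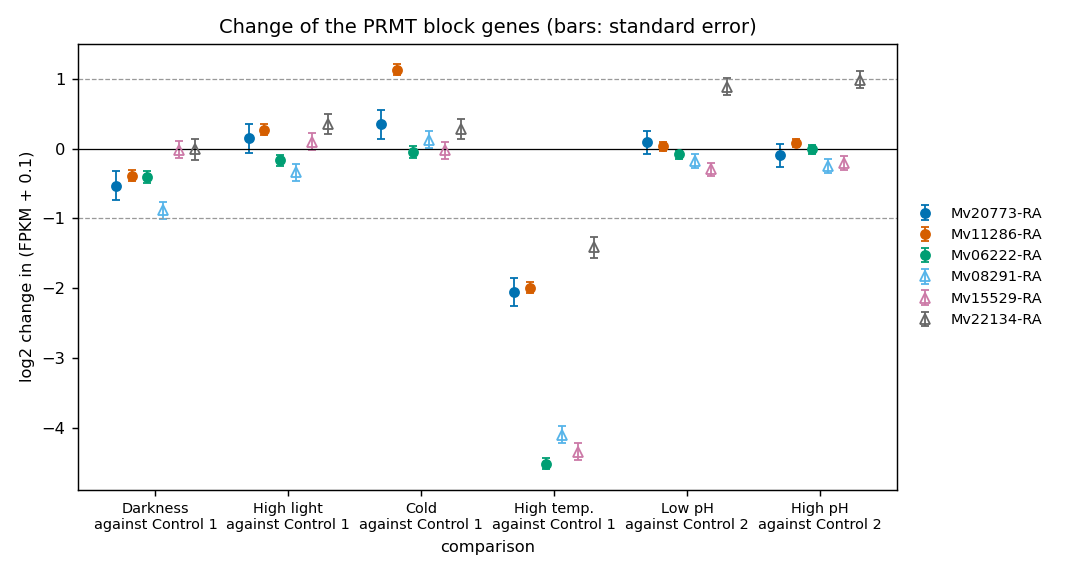
Log2 change in FPKM + 0.1 (y axis) of the 6 genes of the PRMT block in each of the 6 comparisons with a control (x axis), with standard errors as bars and dashed lines at 2-fold. The genes part at High temperature into Mv06222-RA, Mv08291-RA and Mv15529-RA at −4.10 or lower and Mv20773-RA, Mv11286-RA and Mv22134-RA between −2.05 and −1.42; in Cold Mv11286-RA alone passes 2-fold, and Mv22134-RA lies just under 2-fold at both pH values.

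Ratios within a library do not change when each library is multiplied by a factor, as in the gene-ratio scaling, but they do change under quantile normalization. The 3 genes together summed to 80.1 FPKM in Control 1, 150 ± 1.16 FPKM in Cold and 16.3 ± 0.578 FPKM at High temperature (SD, n = 2). Mv11286-RA made up 72.2% of this sum in Control 1 and 72.9% ± 0.362 in Darkness. Its share was 76.9% ± 0.350 under High light, then 84.5% ± 0.511 (Cold) and 88.7% ± 0.130 (High temperature). Mv06222-RA made up 21.3% in Control 1, 10.96% ± 0.256 in Cold and 3.99% ± 0.378 at High temperature, its lowest shares. A share below Control 1 was not particular to temperature. It was 18.5% ± 0.210 in the untreated Control 2, 16.6% ± 0.276 under High light, 17.2% ± 0.467 at Low pH and 17.7% ± 1.71 at High pH. The share of Mv20773-RA was 6.58% in Control 1, 4.51% ± 0.767 in Cold and 7.33% ± 0.248 at High temperature.

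The ratio of Mv11286-RA to Mv06222-RA was 3.40 in Control 1, 7.62 and 7.81 in the Cold libraries and 20.8 and 23.9 in the High temperature libraries, and it lay between 3.43 and 4.74 in the remaining libraries. The ratio of Mv11286-RA to Mv20773-RA was 10.97 in Control 1 and 11.8 and 12.4 at High temperature, inside the span of 9.67 to 15.0 over the libraries outside Cold. Only the Cold libraries, at 16.6 and 21.4, lay above that span. Mv06222-RA exceeded Mv20773-RA by 2.13 to 3.68 times outside High temperature but stood at 0.495 and 0.594 of it there. After quantile normalization, an alternative chosen after the data had been seen, the ratio of Mv11286-RA to Mv20773-RA was 14.74 and 19.34 in Cold, overlapping Darkness (14.63 and 16.00), Control 2, High pH and Low pH, and 5.80 and 6.04 at High temperature, below every other library. The ratio of Mv11286-RA to Mv06222-RA was then 7.32 and 7.35 in Cold and 9.27 and 13.1 at High temperature, still above the 3.80 to 4.87 of the remaining libraries. The ratio of Mv11286-RA to Mv20773-RA in the temperature treatments thus depended on the normalization, and that to Mv06222-RA was raised in both treatments either way.

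**Figure D4:**
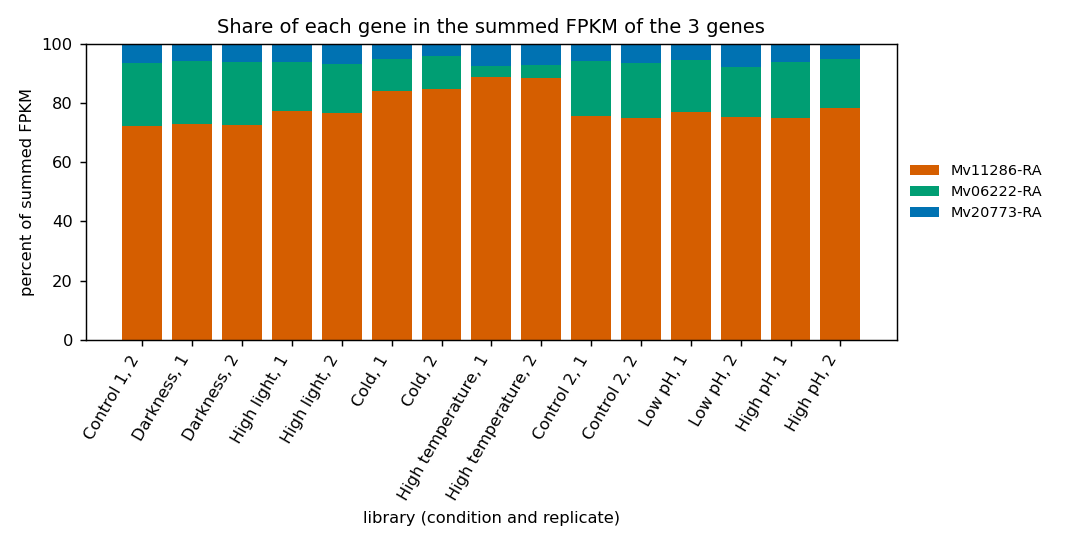
Percent of the summed FPKM of the 3 genes (y axis, stacked to 100) taken by each gene in each library (x axis, condition and replicate). The Mv06222-RA portion narrows from 21.3% in Control 1 to 10.96% on average in Cold and 3.99% at High temperature, while Mv11286-RA widens to 84.5% and 88.7%.

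The other genes of the PRMT block, which are the complement of a set selected with results known, were all lower at High temperature in the deposited FPKM. Mv15529-RA fell from 6.03 FPKM in Control 1 to 0.179 and 0.225 FPKM (−4.35 ± 0.12, limma adjusted p = 7.25e-11), and Mv08291-RA from 9.49 FPKM to 0.455 and 0.462 FPKM (−4.10 ± 0.12, limma adjusted p = 1.31e-10). Both were near Mv06222-RA in size of change and, like it, stayed called under the gene-ratio scaling (−3.30 and −2.92) and after quantile normalization (−3.12 and −2.51). Mv22134-RA had 7.18 FPKM in Control 1 and 2.83 and 2.43 FPKM at High temperature (−1.42 ± 0.15, limma adjusted p = 3.09e-06). It differed from the median of all genes by −0.12, and it was not called under the gene-ratio scaling (−0.13) and had the opposite sign after quantile normalization (0.22).

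Mv22134-RA was the gene of the block farthest from Control 2 in both pH treatments. It had 5.25 and 5.09 FPKM in Control 2, 9.93 and 9.39 FPKM at Low pH and 9.87 and 10.9 FPKM at High pH, with no overlap between treated and untreated libraries. The changes of 0.89 ± 0.12 (limma adjusted p = 3.82e-04) and 0.99 ± 0.12 (limma adjusted p = 1.53e-04) were just under 2-fold and so not called. Of all tested genes 98.1% had a lower change at Low pH and 98.7% at High pH, where 1.57% and 2.25% were called, respectively. With equal totals the High pH change of Mv22134-RA stayed under 2-fold (0.95). It passed 2-fold under the scalings by upper quartile (1.06), gene ratio (1.07) and quantiles (1.14). It also did so, narrowly, with 0.01 FPKM added in place of 0.1 (1.001). The same held without Control 2 replicate 1 (1.01) and without High pH replicate 1 (1.06). Control 1 had 7.18 FPKM, between the Control 2 and pH libraries. In Darkness Mv08291-RA had 5.01 and 5.17 FPKM, a change of −0.89 ± 0.12 (limma adjusted p = 3.14e-04) that did not reach 2-fold, and Mv15529-RA had 5.86 and 6.06 FPKM, a change of −0.02 ± 0.12 (limma adjusted p = 0.946).

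Outside the 3 genes, the study's list of epigenetic genes holds 47 genes, of which 42 passed the minimum for a test. At High temperature 32 of these were called lower and 1 higher, beside 55.3% lower and 6.83% higher of all tested genes, with a median log2 change of −2.63 beside −1.29. Under the gene-ratio scaling 23 were lower and 5 higher, beside 27.0% and 23.3% of all tested genes, with a median of −1.38 beside −0.04. In Cold 1 was called higher and 2 were lower, beside 3.76% higher and 8.28% lower of all tested genes, with a median of −0.02. The higher gene was Mv00726-RA (2.14 ± 0.11), listed as HST, which in Arabidopsis takes part in microRNA export. HST is named because it was called, so its change is given without a p-value. Under the gene-ratio scaling and with equal totals 2 of the 42 were higher and 0 lower, the second being FCA (Mv00415-RA), beside 5.20% higher and 4.31% lower of all tested genes under the gene-ratio scaling.

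The histone lysine methyltransferases of the list, in the blocks of ATX1 and SDG8, methylate histone H3 in Arabidopsis. Of 8 tested genes 7 were lower at High temperature (median −2.77), beside 55.3% of all tested genes. The count was 6 under the gene-ratio scaling, beside 27.0%, and 4 after quantile normalization. After quantile normalization 44.4% of all tested genes were called in either direction, 3086 of these 6349 genes being higher. In Darkness 2 of the 8 were lower, beside 4.02% of all tested genes, and in Cold 1 was lower, beside 8.28%, a call not made under the gene-ratio scaling.

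The DNA methylation genes are in the blocks of DMT2, a DNA methyltransferase, and VIM1, which binds methylated DNA. At High temperature 4 of 4 were lower (median −3.80), beside 55.3% of all tested genes, with 4 under the gene-ratio scaling, beside 27.0%. After quantile normalization 3 were lower, beside 44.4% of all tested genes called in either direction, 3086 of these 6349 genes being higher. In Darkness 3 of 4 were lower, beside 4.02% of all tested genes. The log2 change of Control 2 against the single Control 1 library ran from −1.12 to −0.30 over the 4 genes, with a median of −0.60, and 1 of them was called in that comparison. With Control 2 as the reference, chosen after the data had been seen, 2 of 4 were lower in Darkness, beside 3.15% of all tested genes.

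Of the histone acetylation and deacetylation genes 3 of 4 were tested, and all 3 were lower at High temperature (median −2.42), beside 55.3% of all tested genes. Under the gene-ratio scaling 2 were lower, beside 27.0%. Of the 3 histone ubiquitination genes 1 was lower (median −0.41), beside 55.3% of all tested genes. Under the gene-ratio scaling none was lower and 1 was higher, beside 27.0% lower and 23.3% higher of all tested genes. The remaining 21 tested genes of the list had 14 lower and 1 higher at High temperature, beside 55.3% lower and 6.83% higher of all tested genes. Their median was −1.98 beside −1.29. Under the gene-ratio scaling 9 were lower and 4 higher, beside 27.0% and 23.3% of all tested genes, with a median of −0.70 beside −0.04. In the list 2 further genes touch on arginine methylation by known function. NUC-L1 (Mv02515-RA) encodes nucleolin, whose glycine- and arginine-rich region is a PRMT substrate in animals and yeast, and had 51.1 FPKM in Control 1, 16.5 ± 0.414 in Darkness, 86.4 ± 2.96 in Cold and 2.84 ± 0.171 at High temperature (SD, n = 2). MTHFD1 (Mv12038-RA) is an enzyme of folate metabolism that bears on the supply of methyl groups. It had 40.0 FPKM in Control 1, 22.0 ± 0.605 in Darkness, 33.3 ± 0.0669 in Cold and 3.41 ± 0.248 at High temperature (SD, n = 2). At High temperature NUC-L1 changed by −4.125 ± 0.07 and MTHFD1 by −3.52 ± 0.10, both called lower, beside 55.3% of all tested genes and their median of −1.29. In Cold the changes were 0.76 and −0.26, neither called. Whether either gene follows the PRMT block was not tested.

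Over the 8 condition means, on log2(FPKM + 0.1), Pearson's r was 0.966 between Mv20773-RA and Mv11286-RA, 0.962 between Mv20773-RA and Mv06222-RA and 0.901 between Mv11286-RA and Mv06222-RA. These values rest in large part on High temperature, the point farthest from the others for each gene, and all points share the scale of their library. The median r over the 12705 genes compared was 0.797 for Mv20773-RA, 0.714 for Mv11286-RA and 0.848 for Mv06222-RA. Over the 7 conditions without High temperature r was 0.859, 0.757 and 0.576, beside medians of −0.07, −0.20 and 0.09 over all genes for Mv20773-RA, Mv11286-RA and Mv06222-RA. Within the block Mv06222-RA was closest to Mv15529-RA over 8 conditions (r = 0.996) and to Mv08291-RA over 7 (r = 0.913), whereas its r with Mv15529-RA over 7 was 0.163. Of the genes compared, 1.63%, 0.543% and 45.3% had a higher r with Mv06222-RA than these values, respectively.

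Each pattern was also compared with 320 genes named in the study's lists with a mean of at least 1 FPKM, so the values below are maxima over many genes. Over 8 conditions Mv11286-RA was most like FCA, an RNA-binding regulator of flowering time in Arabidopsis (Mv00415-RA, r = 0.986). ABH1/CBP80, a subunit of the nuclear cap-binding complex (Mv02610-RA, 0.973), and a SEC1/Munc18 gene of vesicle fusion (Mv08629-RA, 0.973) followed. FCA stayed among the 3 most like genes without High temperature (0.935) and under the gene-ratio scaling (0.951), but was the closest in neither. Without High temperature the closest was a gene listed as EMB2001 (Mv01251-RA, 0.949), and RANGAP1 (Mv04816-RA, 0.924) came after FCA. Under the gene-ratio scaling the closest was the SEC1/Munc18 gene (0.955). FCA had 36.5 FPKM in Control 1, 72.3 ± 0.779 in Cold, 21.3 ± 0.698 in Darkness and 4.83 ± 0.666 at High temperature (SD, n = 2). Its log2 change in Cold was 0.98 ± 0.11 in the deposited FPKM, under 2-fold, and 1.19 under the gene-ratio scaling, and at High temperature it was −2.90 ± 0.11. FCA was picked for this likeness, so these changes are given without a p-value. Mv20773-RA was closest to the SEC1/Munc18 gene (0.995), a beta-adaptin (Mv01579-RA, 0.993) and SPIRAL1, known for microtubule organisation (Mv06559-RA, 0.992). Over the 7 conditions without High temperature its 3 closest genes were others, namely an AGC kinase (Mv01051-RA, 0.978), the kinesin ARK3 (Mv01061-RA, 0.976) and a gene of the SDG8 block (Mv04757-RA, 0.974). Mv06222-RA was closest to a gene listed as the auxin efflux carrier PIN2 (Mv05498-RA, 0.998), the spindle checkpoint gene BUB3.1 (Mv15345-RA, 0.997) and PORCINO, a tubulin-folding cofactor (Mv11431-RA, 0.997). Without High temperature its 3 closest genes were likewise others, namely an actin gene (Mv14259-RA, 0.960), PPOP (Mv04646-RA, 0.939) and Mv08291-RA of the block (0.913).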

How the data were processed

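Per the labels, poly(A) RNA was depleted of rRNA, made into stranded mRNA libraries and sequenced as paired ends. The authors mapped reads to the *M. viride* genome and deposited FPKM per gene for 24431 genes in 15 libraries; the submitters' processing notes name HISAT2 2.1.0 and Cufflinks. Counts of fragments per gene were not used here. A gene entered the test when 2 or more libraries reached 0.5 FPKM, which left 14297 genes. The logarithm to base 2 of FPKM + 0.1, which understates the change of low genes, was fitted with limma 3.58.1 in R 4.3.3, with a variance trend, a mean for each condition and 7 residual degrees of freedom. Control 1, with 1 library, was assumed to vary like the other conditions. Calls required a 2-fold change and an FDR (Benjamini-Hochberg) of 0.01. The procedure was tested on simulated data.

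The members and gene lists were chosen with earlier results of these data known. The genes named were the 6 genes of the PRMT block, called members of the lists, NUC-L1, MTHFD1 and, for each of the 3 genes, the 3 listed genes with the highest Pearson's r over condition means, among those averaging 1 FPKM or more. Alternatives were the value added, the minimum, the threshold, 4 scalings (equal totals, upper quartile, median gene ratio, quantiles), the reference, a replicate block and leaving out each library. Control 2 as the reference of the DNA methylation list in Darkness and quantile-normalized ratios were added after the data had been seen.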

Additional observations from a re-analysis of the deposited data

How the results depend on the processing

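The number of the 3 genes called in each of 10 comparisons was compared with 140 values under alternative settings, and 137 were equal or within 1.5 times. That tally counts a 0 that stayed 0, as in the light and pH comparisons, where none of the 3 genes was called. It also counts a drop from 3 to 2, as after quantile normalization at High temperature against Control 1. In Cold the number called went from 1 to 0 with Control 2 as the reference and to 0 after quantile normalization. At High temperature against Control 1 it went from 3 to 1 under the gene-ratio scaling. Of 420 log2 changes of the 3 genes, 414 stayed on their side of the call and 6 lost the call: Mv11286-RA in Cold (0.93 against Control 2 and 0.96 after quantile normalization), Mv20773-RA and Mv11286-RA at High temperature under the gene-ratio scaling, and Mv20773-RA after quantile normalization at High temperature against Control 1 and against Cold. Leaving out in turn each library of the groups compared changed no call of the 3 genes, except that the single Control 1 library cannot be left out of the comparisons with it. Among 258 values of the other block genes, Mv22134-RA at High temperature had the opposite sign after quantile normalization (0.22) and lost its call against Control 2 (−0.95), with the upper quartile (−0.50) and under the gene-ratio scaling (−0.13). With all 6 genes in the sum, Mv11286-RA took 56.2% in Control 1, 72.4% in Cold and 73.8% at High temperature, and Mv06222-RA 16.6%, 9.39% and 3.32%.

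Replicate numbers gave no sign of pairing: over 21 pairs of conditions the deviations of same-numbered libraries correlated at −0.08 to 0.07. These correlations cannot show how the cultures were grown or harvested. A replicate block left the number of the 3 genes called at 1 in Cold and 3 at High temperature. Every comparison with Control 1 rests on 1 untreated library, and the precision that depth gives to the FPKM values is unknown.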
